A study of Mus musculus with 6 samples.

Results

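The immediate early genes are a set of 10 genes, Fos, Fosb, Jun, Junb, Egr1, Ier2, Nr4a1, Atf3, Dusp1 and Klf4, taken by symbol from the 24407 genes of the count table. All 10 were found, and all 10 passed the filter on low counts that left 14539 genes for testing. They were compared between pancreatic islets, the clusters of hormone-secreting cells that hold the beta cells, of lmna LCS mice and of wild-type (WT) mice. LCS mice carry a changed Lmna gene from which lamin C is made and lamin A is not, and the count columns name them KIKI. Both groups were C57BL/6 mice, 70 weeks old and on regular chow, and each group had 3 libraries of polyadenylated RNA. Each library was made from the islets of 3 mice pooled together, so a library value is an average over mice. Counts per gene do not separate lamin A from lamin C transcripts, so the counts do not check the genotype labels.

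Immediate early genes are switched on within minutes of a stimulus by transcription factors that are already in the cell, without new protein synthesis, and their messengers are short-lived. In beta cells glucose, incretin hormones and calcium entry induce them through mitogen-activated protein kinases acting on SRF and its ETS partners and through protein kinase A and calcium signals acting on CREB. They are also induced by stress and by handling and dissociation of tissue. Their products fall into groups. FOS and JUN proteins pair into the AP-1 transcription factor, and EGR1, NR4A1, KLF4 and ATF3 are further transcription factors. DUSP1 is a phosphatase that switches mitogen-activated protein kinases off, and IER2 is a small nuclear protein.

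Promoter sequences are shown for 4 members because CREB and ATF proteins bind DNA that contains TGACG, the core of the cAMP response element. Fos, Jun and Junb are shown as AP-1 genes whose levels moved together over the libraries, and Dusp1 as the member with the narrowest range within LCS. Each line gives the 250 bases before the RefSeq start site on GRCm38.p6, 5′ to 3′, with TGACG and its reverse complement CGTCA in capitals.
Fos, chr12:85473640-85473889, + strand: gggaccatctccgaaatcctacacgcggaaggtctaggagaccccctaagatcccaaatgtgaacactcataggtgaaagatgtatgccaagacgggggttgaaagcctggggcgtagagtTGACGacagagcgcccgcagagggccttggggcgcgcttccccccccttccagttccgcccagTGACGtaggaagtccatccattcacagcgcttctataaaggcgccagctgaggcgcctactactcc
Junb, chr8:84978749-84978998, - strand: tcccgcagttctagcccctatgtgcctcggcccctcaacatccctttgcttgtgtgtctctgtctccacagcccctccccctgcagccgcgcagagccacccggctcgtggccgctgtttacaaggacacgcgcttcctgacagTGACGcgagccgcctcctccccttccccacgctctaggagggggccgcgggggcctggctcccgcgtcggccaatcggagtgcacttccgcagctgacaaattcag
Jun, chr4:95052223-95052472, - strand: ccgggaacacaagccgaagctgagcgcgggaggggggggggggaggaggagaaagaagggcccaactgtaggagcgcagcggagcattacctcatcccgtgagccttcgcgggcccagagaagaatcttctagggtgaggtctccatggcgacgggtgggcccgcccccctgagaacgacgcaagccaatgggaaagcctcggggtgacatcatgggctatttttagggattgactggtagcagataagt
Dusp1, chr17:26508473-26508722, - strand: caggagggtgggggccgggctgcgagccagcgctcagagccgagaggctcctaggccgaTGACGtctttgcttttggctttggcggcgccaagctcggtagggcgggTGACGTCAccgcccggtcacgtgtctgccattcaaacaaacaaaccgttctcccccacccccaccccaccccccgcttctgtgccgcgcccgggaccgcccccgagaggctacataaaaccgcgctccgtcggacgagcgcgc
TGACG was searched on both strands, and TGACG and CGTCA overlap where they form TGACGTCA, as in Dusp1. Positions are counted from the base before the start site, which is -1. Fos has it at -129 to -125 and at -66 to -62, Junb at -106 to -102, and Dusp1 at -191 to -187, -143 to -139 and -140 to -136, and the window of Jun has no match. Among the 8 members with an entry in the table (Ier2 and Egr1 have no sequence shown here), 7 held TGACG: Fos, Fosb, Junb, Nr4a1, Atf3, Dusp1 and Klf4, of which Nr4a1 had 4 matches. Of all 32851 promoter windows of this length, 17.8% held it. TATAAA was present in 1 of the 8, Fos, at -33 to -28, against 12.4% of all windows, and CCAAT in 2, Jun and Junb, against 33.8%. The AP-1 sequence TGANTCA (6.75% of all windows) and the CArG box bound by SRF (1.47%) were in none of the 8 windows. A match is a description of these letters only. Sites further upstream than 250 bases, or spelled otherwise than these patterns, were not searched, so no match does not mean no site.

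The 6 libraries held 26123654 to 68036676 counts, and 19057533 to 32462401 outside 3 rows that hold or can take up reads of ribosomal RNA (Rn45s, Lars2 and Mir6236). Those rows took 52.3% to 54.1% of the LCS counts and 7.64% to 18.5% of the WT counts, with the 18.5% in WT replicate 1. The shares did not overlap between the genotypes, so this library difference and genotype cannot be told apart in LCS against WT. WT replicate 1 stood apart from WT replicates 2 and 3, and results are therefore given with and without it. No library was a copy of another. Levels are CPM, a library's counts scaled to a common total by TMM, and fold changes are LCS over WT from edgeR's quasi-likelihood test, with p-values adjusted over all genes by the Benjamini-Hochberg method. In whole islets, fewer cells of a type and less RNA per cell cannot be told apart.

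None of the 10 immediate early genes passed the test for a difference between the genotypes when all 6 libraries were used. The smallest edgeR adjusted p was 0.347, and 0 of 10 had an unadjusted p below 0.05, where 13.3% of all genes had one and were higher in LCS and 10.8% had one and were lower. Over all genes tested, 2.06% were called higher and 0.144% lower in LCS. DESeq2's Wald test, which called 6.99% of genes higher and 4.26% lower, and limma-voom, which called 2.54% and 0.206%, also called 0 members. WT replicate 1 was the highest WT library for all 10 members, against 42% of all genes. For 5 of 10 members all 3 LCS libraries lay between WT replicate 1 and WT replicates 2 and 3, against 3.89% of all genes. The median log2 fold change of the members was 0.24, against 0.01 over all genes tested, and 7 of 10 were above 0.

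**Figure D1:**
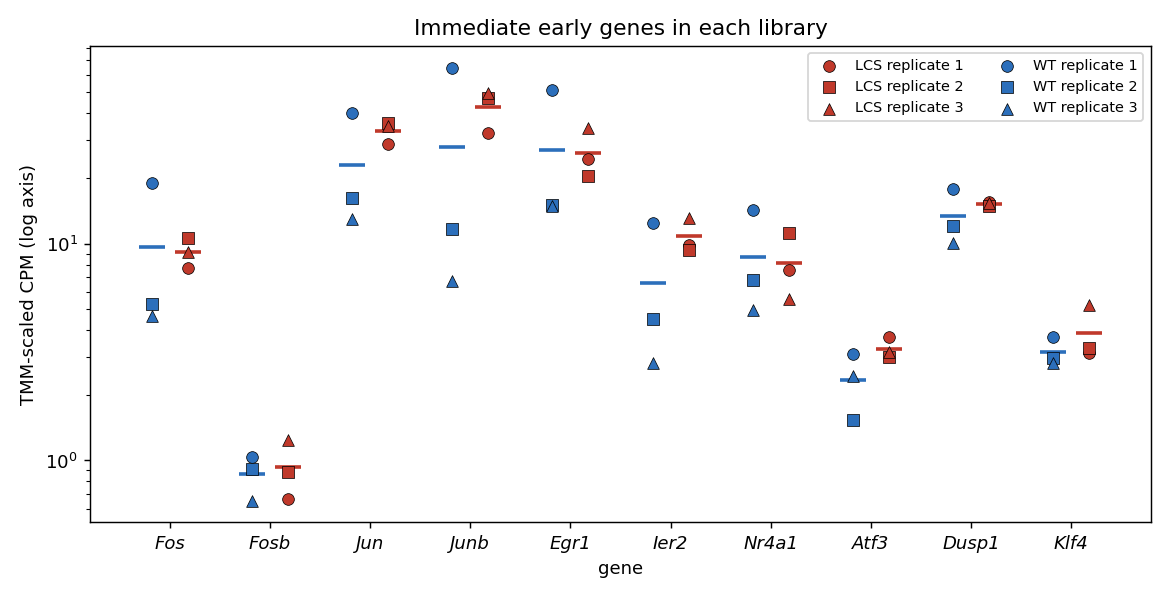
TMM-scaled CPM (log axis) by gene for the 10 immediate early genes. Points are libraries (blue for WT, red for LCS) and bars are group means (n = 3). For Fos, Jun, Junb, Egr1 and Dusp1, all 3 LCS libraries lie between WT replicate 1 above and WT replicates 2 and 3 below.

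Of the AP-1 members, Junb, which codes for a JUN protein that often restrains the activity of JUN itself, varied most. It had 64.9 CPM in WT replicate 1, 11.7 in WT replicate 2 and 6.74 in WT replicate 3, and 32.3, 46.9 and 49.4 CPM in LCS replicates 1 to 3. The WT libraries thus spanned a 9.62-fold range and the LCS libraries a 1.53-fold range within it. The log2 fold change was 0.62 (SE 0.65, 95% interval -0.84 to 2.08, edgeR adjusted p = 0.584), so a difference of either sign was within the error. Jun, the main partner of FOS, had 39.9, 16.2 and 12.9 CPM in WT replicates 1 to 3 and 28.8, 36.2 and 34.8 CPM in LCS. Its log2 fold change was 0.53 (SE 0.36, 95% interval -0.27 to 1.33, edgeR adjusted p = 0.385). As for Junb, the LCS values lay above those of WT replicates 2 and 3 and below that of WT replicate 1.

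Fos, the FOS partner induced most rapidly by calcium and cAMP, had 19.0, 5.28 and 4.62 CPM in WT and 7.69, 10.6 and 9.15 CPM in LCS replicates 1 to 3. The group means were 9.62 ± 8.10 CPM in WT and 9.16 ± 1.48 CPM in LCS (SD, n = 3), and the log2 fold change was -0.07 (SE 0.46, 95% interval -1.11 to 0.96, edgeR adjusted p = 0.937). The means were close, and each LCS library lay below WT replicate 1 and above the other WT libraries. Fosb, whose protein is a slower FOS relative, was the scarcest member. It had 50, 37 and 25 counts in WT replicates 1 to 3 and 19, 45 and 39 counts in LCS, or 0.653 to 1.04 CPM in WT and 0.664 to 1.24 CPM in LCS. At this depth its log2 fold change of 0.10 (SE 0.37) left an interval from -0.74 to 0.93, and the groups overlapped throughout.

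Among the other transcription factors, Egr1, a zinc finger protein induced by glucose in beta cells, followed Fos over the WT libraries only. It had 51.0, 15.2 and 14.9 CPM in WT replicates 1 to 3 and 24.5, 20.4 and 34.1 CPM in LCS, with a log2 fold change of -0.04 (SE 0.43, 95% interval -1.01 to 0.92, edgeR adjusted p = 0.961). Nr4a1, an orphan nuclear receptor induced by cAMP and calcium, had 14.4, 6.79 and 4.96 CPM in WT and 7.59, 11.2 and 5.55 CPM in LCS. Its log2 fold change was -0.10 (SE 0.38), and the LCS libraries themselves spanned a 2.01-fold range, the widest among the members in that genotype. Atf3, a factor of the stress response, had 3.10, 1.53 and 2.46 CPM in WT and 3.71, 2.99 and 3.16 CPM in LCS, a log2 fold change of 0.47 (SE 0.29, 95% interval -0.18 to 1.12, edgeR adjusted p = 0.347). Only WT replicate 1 reached into the LCS range. Klf4, a zinc finger factor, had 3.72, 2.96 and 2.82 CPM in WT and 3.15, 3.32 and 5.20 CPM in LCS, with a log2 fold change of 0.29 (SE 0.26). Here LCS replicate 3, not WT replicate 1, lay apart from the rest.

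With all 6 libraries and edgeR, Ier2 had the largest fold change of the 10, and Junb or Jun was larger under some alternatives, such as Junb with limma-voom (log2 1.26 against 0.92). It had 12.4, 4.52 and 2.82 CPM in WT replicates 1 to 3 and 9.89, 9.33 and 13.2 CPM in LCS, a log2 fold change of 0.71 (SE 0.44, 95% interval -0.29 to 1.70, edgeR adjusted p = 0.355). LCS replicate 3 was above WT replicate 1, and the other LCS libraries were below it. Dusp1, the feedback phosphatase, had 17.9, 12.0 and 10.1 CPM in WT and 15.5, 14.8 and 15.5 CPM in LCS. The LCS libraries differed by a factor of only 1.05, and the log2 fold change was 0.19 (SE 0.21, 95% interval -0.28 to 0.67, edgeR adjusted p = 0.602).

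Per kilobase of the longest annotated transcript, the mean WT level was highest for Junb at 15.4 CPM per kb and lowest for Fosb at 0.23. Between them came Jun at 7.22, Egr1 at 6.03, Dusp1 at 5.77, Fos at 4.56, Ier2 at 4.33, Nr4a1 at 3.41, Atf3 at 1.19 and Klf4 at 1.05 CPM per kb. With WT replicate 1 in the mean, neighbours in this order from Junb down to Nr4a1 did not differ beyond the spread of the WT libraries. In LCS, Junb (23.7 CPM per kb) and Jun (10.4) were again the highest, Ier2 (7.09) and Dusp1 (6.61) came before Egr1 (5.87) and Fos (4.35), and Fosb (0.25) was again the lowest.

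Of the 10 immediate early genes, 6 stood out among all genes for their spread within WT, and none within LCS. The range from the lowest to the highest WT library, on the log2 CPM scale with a prior count of 2, was 3.26 for Junb, 2.12 for Ier2, 2.02 for Fos, 1.77 for Egr1, 1.62 for Jun and 1.52 for Nr4a1. The median over all genes tested was 0.45 and the 95th percentile 1.40, so these 6 members were in the top 5% of genes by WT range. For Junb, only 0.144% of genes had a larger range. Atf3 (0.99), Dusp1 (0.82) and Fosb (0.63) were above the median, and Klf4 (0.39) was below it. Within LCS the range was narrowest for Dusp1 (0.06) and widest for Nr4a1, with a median of 0.45 and a 95th percentile of 1.48 over all genes, and no member was in the top 5%. The biological coefficient of variation estimated by edgeR was 54.3% for Junb, 39.5% for Fos, 38.0% for Ier2 and 37.1% for Egr1, where the trend at their level was 17.6% to 20.6%. Nr4a1 (33.2%) and Jun (30.9%) were also above their trend of 20.7% and 17.9%. Dusp1 was at 19.6% against a trend of 18.9%. Fosb (28.1% against 32.5%), Atf3 (25.0% against 25.9%) and Klf4 (23.2% against 24.7%) were below their trend. These ranges are a description of 3 libraries in each genotype, and no test of a difference in spread was made.

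**Figure D2:**
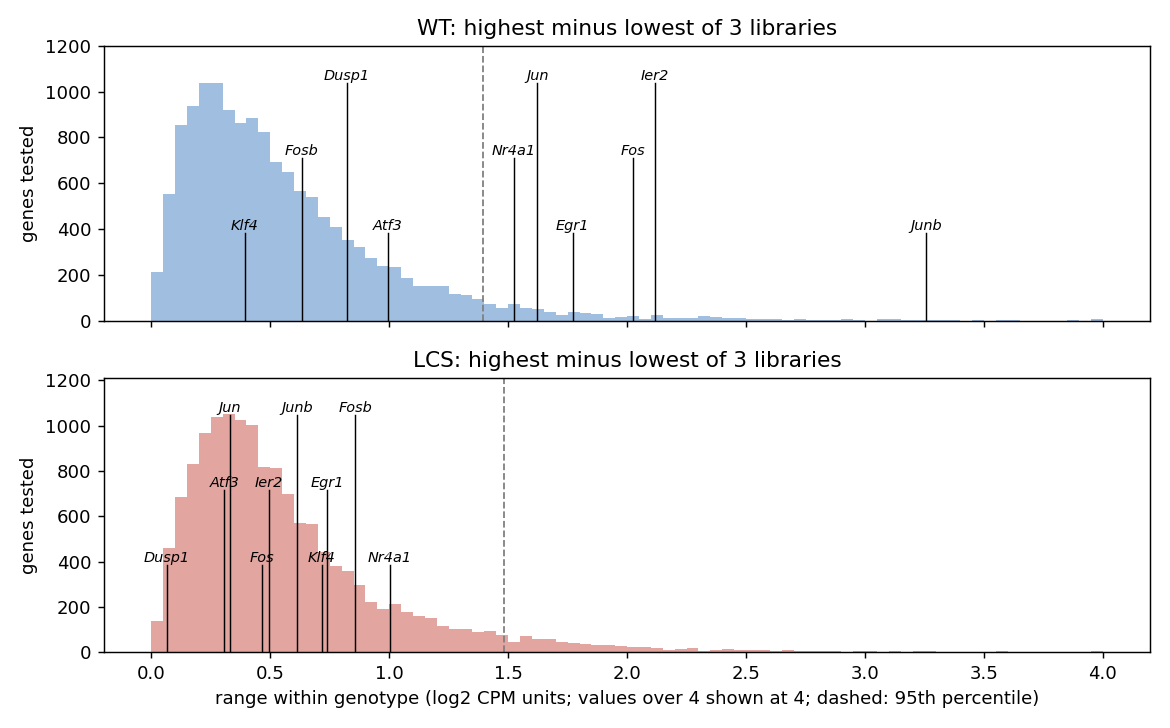
Number of genes tested by the difference between the highest and lowest of 3 libraries (log2 CPM units), for WT above and LCS below, with the 10 immediate early genes marked and the 95th percentile dashed. In WT, 6 members lie beyond the 95th percentile of 1.40, and in LCS none lies beyond that of 1.48.

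The libraries took similar places across the members. WT replicate 1 was the highest of all 6 libraries for Fos, Jun, Junb, Egr1, Nr4a1 and Dusp1, that is 6 of 10, and for 13.6% of all genes tested. WT replicates 2 and 3 were the lowest pair for 8 of 10, all but Fosb and Nr4a1, and for 22.7% of all genes. All 3 LCS libraries lay between WT replicate 1 and the other WT libraries for 5 of 10 members and for 3.89% of all genes. No member had groups that did not overlap, against 26.6% of all genes.

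Without WT replicate 1, 5 of 10 members were higher in LCS by edgeR's quasi-likelihood test and none was lower. WT replicate 1 was the highest WT library for all 10 members, against 42% of all genes. Leaving it out lowers the WT mean of each, so the upward shift of all 10 fold changes was fixed in advance. With this library left out, 12.5% of all genes were called higher and 7.68% lower, so calls were frequent in general. Junb had a log2 fold change of 2.22 (SE 0.27, edgeR adjusted p = 0.000773), Ier2 1.55 (SE 0.26, 0.00333), Jun 1.19 (SE 0.18, 0.00209), Fos 0.89 (SE 0.21, 0.0157) and Egr1 0.81 (SE 0.21, 0.0251). The remaining members were all above 0: Atf3 at 0.72, Nr4a1 at 0.47, Dusp1 at 0.47, Klf4 at 0.43 and Fosb at 0.25, with edgeR adjusted p of 0.103, 0.26, 0.069, 0.303 and 0.719. The median of the members was 0.76, against 0.04 over all genes. Leaving out any other library gave 0 calls among the members. The shares of all genes called higher and lower were then 0.581% and 0.0203% for LCS replicate 1 left out, 1.77% and 0.284% for LCS replicate 2, and 0.547% and 0.00675% for LCS replicate 3. For WT replicate 2 left out they were 0.748% and 0.0202%, and for WT replicate 3 they were 0.931% and 0.0405%. Leaving out WT replicates 1 and 2 together, whose sample titles carry numbers apart from the consecutive ones of the other libraries, left WT replicate 3 alone, assumed to vary like the LCS libraries, and called Junb (2.67, edgeR adjusted p = 0.000688), Ier2 (1.93, 0.00534) and Jun (1.36, 0.0107), where 5.77% of all genes were called higher and 2.16% lower. The calls thus turned on WT replicate 1, and the labels do not say what the numbers mean.

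The members also had 0 calls under each other setting that kept all 6 libraries, where few genes were called in general. The shares of genes called higher and lower were 1.95% and 0.158% with DESeq2 size factors, 2.95% and 0.663% with no filter on low counts, and 2.26% and 0.174% at a minimum of 1 CPM in 3 libraries. They were 2.08% and 0.145% without the rows of ribosomal RNA and 1.93% and 0.145% without acinar and Reg genes. For protein-coding genes alone they were 1.68% and 0.117%, and with a length offset 0.477% and 0.044%.

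**Figure D3:**
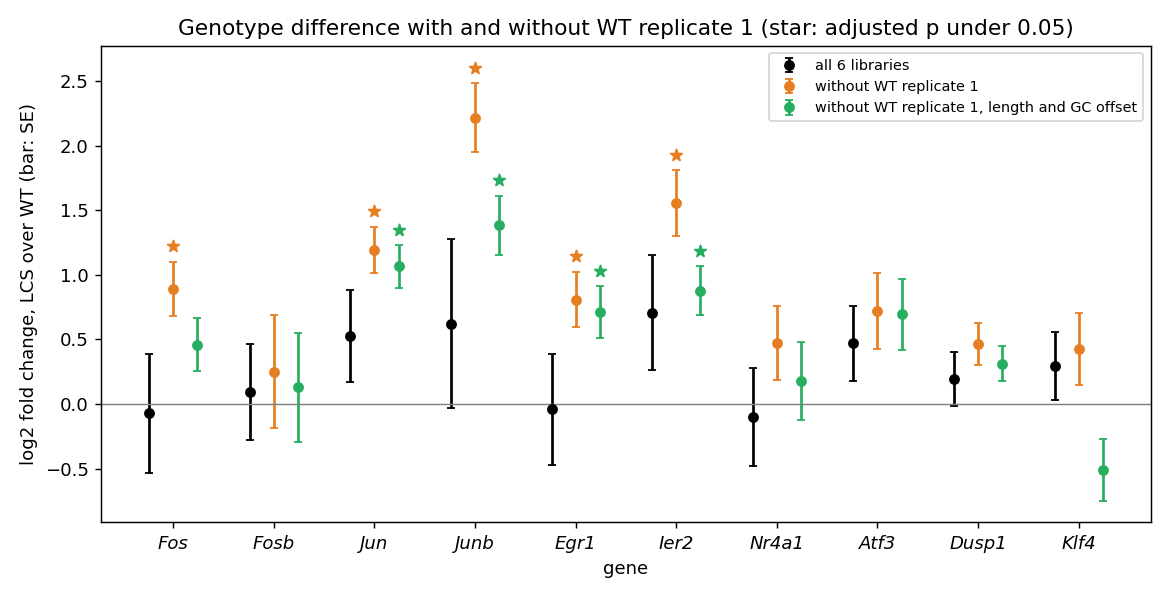
Log2 fold change of LCS over WT with its standard error for the 10 immediate early genes, with all 6 libraries (black), without WT replicate 1 (orange) and without it under a length and GC offset (green); stars mark an edgeR adjusted p under 0.05. No black point has a star, 5 orange points and 4 green points have one, and Klf4 is below 0 only under the offset.

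The libraries also differed in their trend with transcript GC content, and some members deviated more and others less than their GC class. All 10 members had transcripts with a GC content above the median of 50.8% of protein-coding genes tested, and Junb (62.7%), Klf4 (62.5%) and Ier2 (60.9%) were among the 4.61% of such genes at 60% or more. In that class the median deviation from the mean of the 6 libraries, on the log2 scale, was 0.33 in WT replicate 1, -0.32 in WT replicate 2 and -0.65 in WT replicate 3, against 0.29, 0.03 and 0.42 in LCS replicates 1 to 3. Junb and Ier2, of that class, deviated further. Junb was at 1.26, -1.20 and -1.99 in the WT libraries and Ier2 at 0.70, -0.75 and -1.41. Klf4, at 0.11, -0.22 and -0.29, deviated less than the class. Fos (55.9% GC) was at 1.17, -0.66 and -0.85, against 0.15, -0.16 and -0.33 in the class of 55 to 60%. Each library's trend with length and GC was then corrected, by an offset added after the data were seen. Junb was then at 0.94, -0.79 and -1.23, Ier2 at 0.41, -0.43 and -0.79, and Fos at 1.09, -0.46 and -0.49. Klf4 turned over, from 0.11, -0.22 and -0.29 to -0.18, 0.21 and 0.49.

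With that offset and all 6 libraries no member was called (smallest edgeR adjusted p = 0.245), while 3.21% of protein-coding genes were called higher and 2.62% lower. With the offset and without WT replicate 1, Junb (1.38, edgeR adjusted p = 0.00471), Jun (1.07, 0.00342), Ier2 (0.88, 0.0115) and Egr1 (0.71, 0.0364) were higher, where 7.46% of genes were called higher and 8.63% lower. Fos was at 0.46 (SE 0.21, edgeR adjusted p = 0.156) and Klf4 at -0.51 (SE 0.24, 0.166). WT replicate 1 also had the largest ribosomal share of the WT libraries (18.5%), and the part of that share in these differences was not tested.

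**Figure D4:**
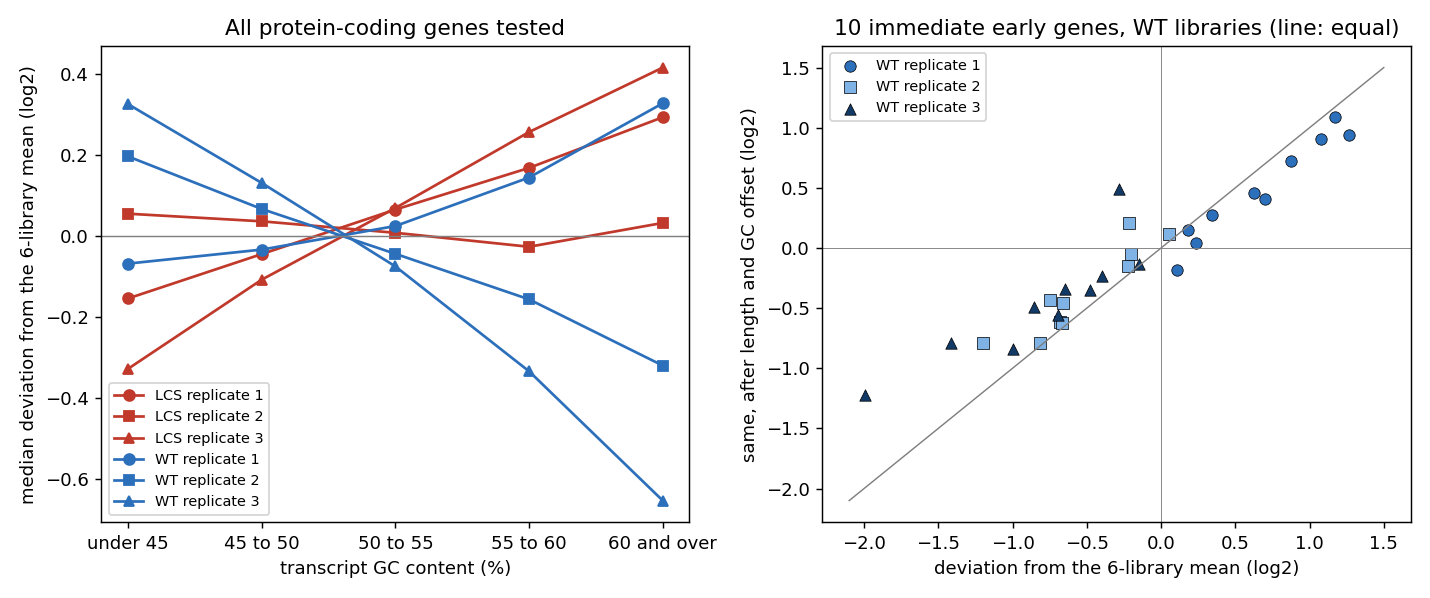
Left, median deviation of each library from the mean of 6 libraries (log2) in 5 classes of transcript GC content over protein-coding genes, WT in blue and LCS in red. Right, the same deviation for the 10 immediate early genes in the WT libraries before (x axis) and after (y axis) the length and GC offset: most points keep their sign and move towards 0, as Junb in WT replicate 1 does from 1.26 to 0.94.

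Markers of other islet and pancreas cells were measured beside the members, as summed CPM of each list. Stellate and fibroblast markers (9 of 9 detected) were at 103.1 CPM in WT replicate 1, 32.8 and 47.5 CPM in WT replicates 2 and 3, and 36.3 to 66.8 CPM in LCS. Of their genes, Pdgfra (7.51 CPM) and Col3a1 (26.5 CPM) were also highest in WT replicate 1. Acta2, of the same list, had a log2 range of only 0.325 over WT, against 1.082 over LCS. Duct markers (7 of 7 detected) were at 627.4 CPM in WT replicate 1, 320.0 and 406.6 in the other WT libraries and 528.2 to 644.6 in LCS. Macrophage markers (10 of 11 found) were at 57.6 to 73.9 CPM in WT and 86.5 to 102.2 CPM in LCS, endothelial markers (10 of 10) at 235.5 to 286.0 CPM in WT and 273.9 to 319.0 CPM in LCS, and lymphocyte markers (7 of 7) at 9.38 to 10.8 and 11.2 to 14.7 CPM. Acinar markers (12 of 12) were at 117.2 to 191.7 CPM in WT and 435.3 to 771.9 CPM in LCS, so they separated the genotypes and did not single out WT replicate 1, and 10 of the 10 tested were called higher in LCS. Of the macrophage markers 1, Lyz2, was called higher, and of the endothelial, stellate and fibroblast, duct, beta cell and lymphocyte markers 0 were called. Markers of alpha, delta and PP cells (7 of 7) were at 13812 to 17102 CPM in WT and 19356 to 26095 CPM in LCS. Of these 1, Ppy, was called higher. The acinar, macrophage, lymphocyte, beta cell, and alpha, delta and PP cell sums did not overlap between the genotypes, nor did 26.6% of all genes. The part of these cells in the levels of the members was not tested. Markers of beta cells summed to 147500 to 171720 CPM in WT and 174850 to 263320 CPM in LCS, so the defining transcripts of islets were present in each library.

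The genes whose pattern over the 6 libraries was most like the mean pattern of the members were Erf, Gorasp2, Rhob, Usb1 and Vps51, with Pearson's r of 0.993, 0.993, 0.991, 0.987 and 0.987 and the same order of libraries (Spearman's rho of 1 for each). They were the top 5 of 9384 genes with a mean of at least 5 CPM, of which 554 had an r over 0.9. They were picked for this likeness, so the order of their libraries is a description. Erf, an ETS family repressor of targets of mitogen-activated protein kinases, had 13.8, 7.20 and 6.82 CPM in WT replicates 1 to 3 and 10.6, 10.7 and 12.1 CPM in LCS. Rhob, a small GTPase that is itself an early response gene, had 26.4, 15.9 and 13.2 CPM in WT and 20.4, 21.8 and 24.9 CPM in LCS.

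The wider early response was followed in 7 lists of 130 genes, of which 126 were tested. With all 6 libraries 1 gene, Nupr1, was higher in LCS (0.794%, against 2.06% of all genes) and none was lower, while unadjusted p-values below 0.05 were found for 11 of the 126 above 0 and 13 below (8.73% and 10.3%), against 13.3% and 10.8% of all genes. DESeq2's Wald test called 6 in each direction (4.76% each), against 6.99% higher and 4.26% lower over all genes. These lists had a median of 0.02, close to the 0.01 of all genes. WT replicate 1 was the highest WT library for 88 of the 126 (69.8%), against 42% of all genes, and 10 of them (7.94%) were in the top 5% by WT range.

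The relatives of AP-1 proteins (10 of 12 tested) had a median log2 fold change of -0.05 and no edgeR call. DESeq2's Wald test called Mafg and Atf7 lower (20%, against 4.26% of all genes). Mafg, a small MAF protein, was at -0.64 (SE 0.16), Atf7 at -0.58 (SE 0.19) and Atf2, a CREB-like partner of JUN, at -0.48 (SE 0.19). Their edgeR adjusted p was 0.0715, 0.122 and 0.169. Jund, the JUN family member expressed without stimulus and named after its values were seen, had 50.2, 9.72 and 7.52 CPM in WT replicates 1 to 3 and 34.0, 37.1 and 44.1 CPM in LCS. This is the order of Junb, and Jund moved to 2.16 (edgeR adjusted p = 0.000173) without WT replicate 1. The other EGR, NR4A and KLF factors (11 of 12 tested) had a median of -0.24 and no edgeR call with or without WT replicate 1, with Klf9 at -0.75 (SE 0.31), Klf6 at -0.39 (SE 0.17) and the EGR corepressor gene Nab1 at -0.35 (SE 0.15).

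Feedback inhibitors (26 of 27 tested) had a median of 0.09 and no edgeR call, and WT replicate 1 was the highest WT library for 23 of them. Nfkbia, the inhibitor of NF-kappa-B, was at 0.68 (SE 0.21), the stress gene Gadd45g at 0.84 (SE 0.29) and Spred1, an inhibitor of the kinase cascade, at -0.58 (SE 0.21); their edgeR adjusted p was 0.109, 0.132 and 0.141. The Wald test of DESeq2 called Nfkbia and Gadd45g higher (7.69%, against 6.99% of all genes). When WT replicate 1 was left out, 6 were higher (Ier3, Socs3, Nfkbia, Gadd45a, Gadd45b and Gadd45g) and none was lower. That is 23.1% higher, where 12.5% of all genes were called higher and 7.68% lower. Other early response genes (28 of 28 tested) had a median of -0.04 and no call by either tool, with Homer1 at -0.44 (SE 0.20), the kinase gene Plk2 at 0.34 (SE 0.16) and Irf1 at 0.35 (SE 0.17). Cebpd, a leucine zipper factor named after its values were seen, had 34.2, 5.21 and 3.66 CPM in WT replicates 1 to 3 and 14.9, 30.2 and 24.3 CPM in LCS. Without WT replicate 1 it was at 2.39 (edgeR adjusted p = 0.000903). Myc, Cyr61, Cebpb, Rhob and Phlda1 were then also called higher, which makes 6 of 28 (21.4%, against 12.5% of all genes).

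The kinases and factors upstream of the members (27 of 27 tested) had a median of -0.06 and no edgeR call. DESeq2's Wald test called 14.8% of them lower, against 4.26% of all genes, and Creb1, Braf and Rps6ka3 were among these. Rps6ka3, which codes for a kinase that phosphorylates CREB, was at -0.83 (SE 0.21), the kinase gene Braf at -0.70 (SE 0.20) and Creb1 at -0.68 (SE 0.20). Their edgeR adjusted p was 0.0741, 0.0932 and 0.0944. For these 3 genes every LCS library was below every WT library, and WT replicate 1 was the lowest of the WT libraries. They were picked for the smallest p in their list, and the groups did not overlap for 26.6% of all genes. Srf was at 0.03 (SE 0.19). Without WT replicate 1, 3 genes of this list were higher (11.1%) and 4 lower (14.8%), against 12.5% and 7.68% of all genes. Among the lower ones was Creb1 at -0.83 (edgeR adjusted p = 0.0131).

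Heat shock genes (13 of 13 tested) had a median of 0.33 and no edgeR call, with Hspb1 at 1.26 (SE 0.30), the mitochondrial chaperonin gene Hspe1 at 0.57 (SE 0.14) and Dnajb1 at 0.68 (SE 0.18), and edgeR adjusted p of 0.0586, 0.070 and 0.0771. DESeq2 called these 3 higher by its Wald test (23.1% of the list, against 6.99% of all genes). For each of these 3 genes the groups did not overlap, as for 26.6% of all genes, and WT replicate 1 lay below every LCS library. These 3 were picked for the smallest p in their list, so this is a description. Of the integrated stress response genes (11 of 11 tested, median 0.35), Nupr1, a stress-induced nuclear protein gene, rose 1.81-fold. It had 149.4, 150.6 and 155.3 CPM in WT replicates 1 to 3 and 270.4, 283.7 and 268.3 CPM in LCS (log2 0.85, SE 0.13, edgeR adjusted p = 0.0132). The call ended without LCS replicate 1 (adjusted p = 0.0614), without WT replicate 2 (0.0862), with WT replicates 1 and 2 left out (0.0614), with a length offset (log2 0.58, adjusted p = 0.0824), with a length and GC offset (log2 0.48, adjusted p = 0.064), and with the latter and without WT replicate 1 (log2 0.38, adjusted p = 0.0845). Atf4, the main factor of that response, was at 0.52 (SE 0.21) and Vldlr at -0.48 (SE 0.19), with an edgeR adjusted p of 0.165 for each. Without WT replicate 1, 7 heat shock genes (53.8%) and 7 integrated stress response genes (63.6%) were higher and 1 of the latter (9.09%) was lower. Over the 7 lists this made 30 higher (23.6%) and 8 lower (6.3%), against 12.5% and 7.68% of all genes.

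**Figure D5:**
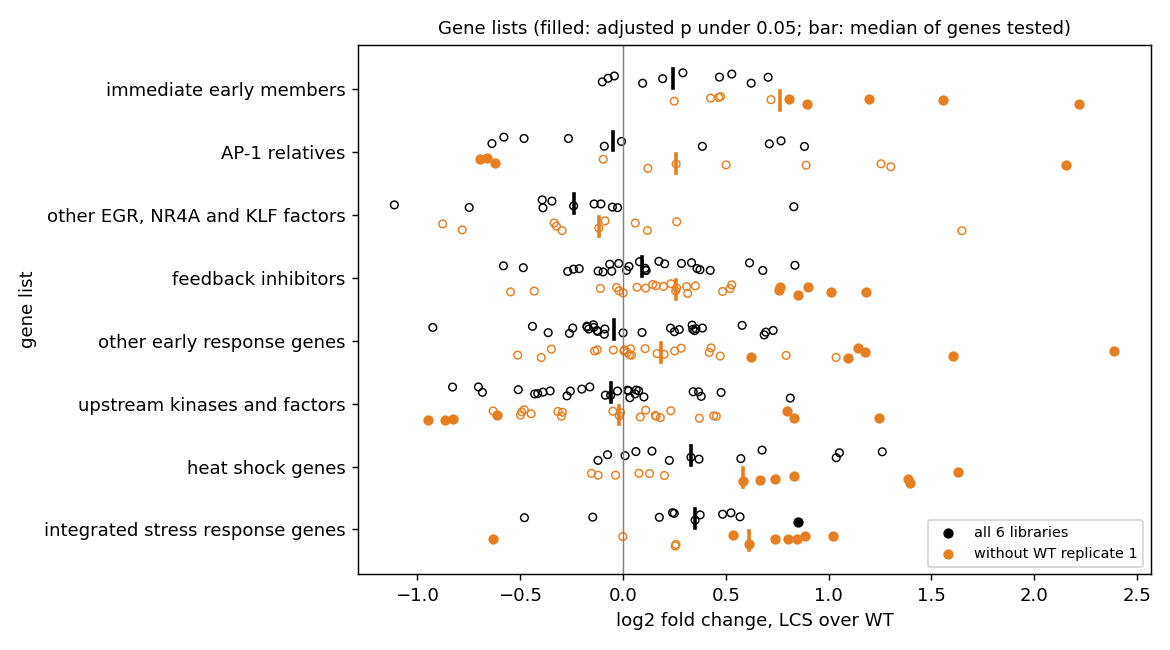
Log2 fold change of LCS over WT for each tested gene of 8 lists, with all 6 libraries (black) and without WT replicate 1 (orange); filled points passed an edgeR adjusted p under 0.05 and bars are list medians. With all libraries 1 point, Nupr1, is filled, and the median of the immediate early genes moves from 0.24 to 0.76 without WT replicate 1.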

How the data were processed

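Islet RNA was extracted with TRIzol and sequenced from strand-specific TruSeq libraries, per the labels' protocols. HTSeq 0.9.0, TopHat2 2.1.1, Bowtie2 2.2.9, FastQC, bcl2fastq 2.20 and the build mm9 are listed, without roles, in the submitters' processing notes. Annotation and strand setting: not given in the sources used here. The deposited values are whole-number counts per gene, not normalised. No member overlaps another RefSeq gene of GRCm38.p6, a build used here only for names and promoter sequences.

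The test was edgeR's 4.0.16, run under R 4.3.3 (filterByExpr at default settings, TMM, quasi-likelihood test with genotype as its only term, Benjamini-Hochberg adjustment, threshold 0.05). Replicates were numbered in accession order, and as each is a pool of 3 mice, p-values describe the spread between pools. Precision was limited by 3 libraries per group, and for Fosb by 19 to 50 counts per library. Transcript length and GC content were medians over GENCODE transcripts, found for 95.2% of tested genes, and levels per kilobase used the longest transcript. Offsets were loess fits (span 0.5) per library.

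The members, the gene lists and the rules were chosen with earlier results of these data known. Genes named were the members, in each list the called genes and otherwise those with the smallest p up to 3, and the 5 genes most like the members' mean log2 CPM pattern; others are marked. Alternatives were DESeq2 1.42.0 size factors and Wald test, limma-voom (limma 3.58.1), 2 filters, rows of ribosomal RNA or acinar and Reg genes left out, a length offset, and libraries left out. Added after the data were seen were protein-coding genes alone and a length and GC offset, also without WT replicate 1. The fit was tested on simulated data. Figures used matplotlib 3.10.9.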

Additional observations from a re-analysis of the deposited data

How the results depend on the processing

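No member was called under any alternative that kept WT replicate 1. Counts of members called higher were 5 without WT replicate 1, 3 without WT replicates 1 and 2, and 4 with the length and GC offset without WT replicate 1, and the range over leaving out each library was 0 to 5; 0 were called lower throughout. Over all genes, 300 were higher and 21 lower, and leaving out each library gave 81 to 1857 higher and 1 to 1142 lower. Elsewhere the numbers higher and lower came to 937 and 571 with DESeq2's Wald test, 560 and 126 without a filter, 65 and 6 with the length offset, 884 and 331 without WT replicates 1 and 2, 437 and 357 with the length and GC offset, and 1026 and 1188 with it and without WT replicate 1. In the 7 lists, 1 higher and 0 lower became 6 and 6 with DESeq2's Wald test, 2 and 1 without a filter, 0 higher with the length offset, 13 and 3 without WT replicates 1 and 2, 2 and 6 with the length and GC offset, 12 and 11 with it and without WT replicate 1, and 0 to 30 higher and 0 to 8 lower when leaving out each library. Some alternatives use fewer libraries or genes, and the cause of these differences was not tested.

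Fos, Egr1 and Nr4a1 lie near 0 and changed sign with limma-voom (log2 0.21, 0.16 and 0.0008) and without WT replicates 1 and 2 (0.99, 0.82 and 0.72), and Egr1 with the length offset (0.14) and the length and GC offset (0.0214). Klf4 changed sign with the length and GC offset (-0.34), and with it and without WT replicate 1 Fos was at 0.46, Egr1 at 0.71, Nr4a1 at 0.18 and Klf4 at -0.51. Leaving out each library gave -0.40 to 0.89 for Fos, -0.33 to 0.81 for Egr1, -0.39 to 0.47 for Nr4a1 and -0.15 to 0.31 for Fosb. Jun, Junb, Ier2, Atf3 and Dusp1 stayed above 0 under every alternative run, with ranges over leaving out each library of 0.24 to 1.19, 0.16 to 2.22, 0.34 to 1.55, 0.24 to 0.72 and 0.03 to 0.47; the lowest came without WT replicate 3, for Atf3 without WT replicate 2. At a minimum of 1 CPM in 3 libraries Fosb was not tested. No paired analysis was possible because the labels give the groups no shared replicate numbers.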
